A study of Rattus norvegicus with 19 samples.

Results

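Enzymes and the carrier that supply acetyl-CoA, malonyl-CoA and NADPH to fatty acid synthesis were followed in rat liver. The genes named were Fasn, Acaca, Acacb, Acly, Me1, Pgd, Tkt, Taldo1 and Slc25a1, and a probe was taken where its gene name in the scanner files, or the current symbol reached by accession or synonym, was 1 of these 9. The rule found 8 of the 9 genes among the 15212 genes named on the array, read by 11 of 41012 non-control probes, and all 11 were among the 25292 probes kept for testing, a set that required the rat's signal to be well above background on 6 or more of 19 arrays. No probe was named Pgd by the rule. In HF against Control livers 10 of these 11 probes were called lower, against 1.73% of all probes (3.46% were called in either direction), and in HP against Control livers none was called, against 0.447% of all probes.

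The livers came from 19 male Wistar rats, 8 weeks old at the start, which ate 1 of 3 purified diets for 4 months and were killed in the fed state. The high fat diet (HF, 6 rats) took 60% of its energy from fat, 20% from carbohydrate and 20% from protein. The high protein diet (HP, 6 rats) took 45% from protein, chiefly casein, 45% from carbohydrate and 10% from fat, and the low fat control diet (Control, 7 rats) took 20% from protein, 70% from carbohydrate and 10% from fat. HF thus differed from Control in fat and carbohydrate at the same share of protein, and HP from Control in protein and carbohydrate at the same share of fat. On each array the Cy5 channel held 1 rat and the Cy3 channel a pooled liver reference common to all arrays, so a value is the log2 ratio of that rat to the pool.

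In the liver, citrate made in mitochondria is carried to the cytosol and cleaved to acetyl-CoA, which is carboxylated to malonyl-CoA and built into palmitate by fatty acid synthase. Each round of chain growth consumes NADPH, which comes from malic enzyme and from the oxidative steps of the pentose phosphate pathway. The transcription factors SREBP-1c and ChREBP, which respond to insulin and to glucose metabolites, are known to switch these genes on together in the fed liver, and dietary polyunsaturated fat is known to lower them.

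All 10 hepatocyte markers examined were measured. The median log2 ratio of these markers in a liver lay between 0.11 and 0.23 in HF, between 0.20 and 0.41 in HP and between 0.07 and 0.29 in Control. Among 10 adipocyte markers, the defining genes Adipoq and Lep were well above background on no array, 6 were measured and none passed the test in any of the 3 comparisons. Some markers moved with the diets, and those named were chosen after their values were seen. Of 9 measured stellate cell markers, 2 rose in HF against Control (Rgs5 by 0.60 and Reln by 0.52 on the log2 scale, limma adjusted p = 0.000394 and 0.00375), 1 in HP against Control (Rgs5, 0.45, adjusted p = 0.0216) and 1 in HF against HP (Reln, 0.35, adjusted p = 0.0433). Of the 10 hepatocyte markers, none passed in HF against Control, 1 rose in HP against Control (Cps1, 0.62, adjusted p = 0.0325) and 3 fell in HF against HP (Cps1, -0.60, Serpina1, -0.41, and Ttr, -0.33, adjusted p from 0.00286 to 0.0109). Of 9 measured Kupffer cell and macrophage markers, 1 fell in HF against HP (Lyz2, -0.77, adjusted p = 0.0352). No measured cholangiocyte (6), endothelial (7) or lymphocyte (7) marker passed in any of the 3 comparisons. The part of these markers in the results below was not tested. Control 6 stood apart. The median log2 ratio of its 7 measured lymphocyte markers was 2.26, against -0.57 or lower in the 6 other Control livers and -0.35 or lower in the 12 HF and HP livers. Its log ratios had an SD of 0.38, against at most 0.25 on the other arrays. Counts of correlated pairs over all livers are given with and without it. The correlations within Control livers were not repeated without it alone. In whole liver, fewer cells of a type and less RNA per cell cannot be told apart.

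The probes of the carrier and enzymes lay on 6 chromosomes of build rn4 where the files gave a position. Citrate carrier Slc25a1 was read at chr11:85045916-85046057 (plus strand), ATP citrate lyase Acly at chr10:89421079-89421138 (minus strand) and acetyl-CoA carboxylase beta Acacb at chr12:43392386-43392445 (minus strand). Acaca, the cytosolic acetyl-CoA carboxylase alpha, had probe A_44_P514379 at chr10:72678945-72679004 and probe A_42_P489761 at chr10:72677048-72677107 (both plus strand). Me1, the cytosolic malic enzyme, had probe A_42_P792817 at chr8:91839922-91839981 and probe A_43_P11481 at chr8:91841204-91841262 (both minus strand). Transketolase Tkt was read at chr16:5933619-5933678 and transaldolase Taldo1 at chr1:201593129-201593188 (both plus strand). The files gave no position for the Fasn probes A_44_P235978 and A_44_P235985.

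RefSeq promoters of build GRCr8, from 250 bases before to 50 bases after the annotated start, were matched by symbol for 7 of the 9 genes (Acacb, Acly, Me1, Pgd, Tkt, Taldo1 and Slc25a1). The promoters of the citrate genes Acly (chr10:85963582-85963881, minus strand) and Slc25a1 (chr11:96559804-96560103, plus strand) are shown 5′ to 3′. Those of the malic enzyme gene Me1 (chr8:96540195-96540494, minus strand) and the transketolase gene Tkt (chr16:5729982-5730281, plus strand) are shown likewise. They were chosen because Acly and Slc25a1 form 1 of the pairs that passed the correlation test between rats. Me1 and Tkt form 1 of the pairs that narrowly missed that test over all 19 livers (r = 0.48, permutation adjusted p = 0.0505). In Control livers alone the pair of Me1 and Tkt passed (r = 0.97, exact permutation test, adjusted p = 0.0417). Capitals mark every match on either strand to the CCAAT box (CCAAT), the GC box (GGGCGG), the E box (CACGTG), a sterol element (TCACNCCAC) or the core of the antioxidant and AP-1 sites (TGACTCA).
Acly: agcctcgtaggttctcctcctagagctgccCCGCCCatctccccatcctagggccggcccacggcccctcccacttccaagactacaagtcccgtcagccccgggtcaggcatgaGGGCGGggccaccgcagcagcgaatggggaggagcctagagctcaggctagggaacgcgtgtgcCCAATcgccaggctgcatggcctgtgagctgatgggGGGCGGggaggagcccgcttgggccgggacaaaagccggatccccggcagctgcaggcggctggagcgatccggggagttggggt
Slc25a1: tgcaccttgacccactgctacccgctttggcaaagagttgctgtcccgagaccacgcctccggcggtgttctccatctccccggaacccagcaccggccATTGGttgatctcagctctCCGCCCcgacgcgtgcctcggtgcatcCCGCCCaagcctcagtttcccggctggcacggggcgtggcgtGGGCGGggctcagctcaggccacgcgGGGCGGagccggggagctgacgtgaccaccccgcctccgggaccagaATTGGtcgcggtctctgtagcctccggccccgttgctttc
Me1: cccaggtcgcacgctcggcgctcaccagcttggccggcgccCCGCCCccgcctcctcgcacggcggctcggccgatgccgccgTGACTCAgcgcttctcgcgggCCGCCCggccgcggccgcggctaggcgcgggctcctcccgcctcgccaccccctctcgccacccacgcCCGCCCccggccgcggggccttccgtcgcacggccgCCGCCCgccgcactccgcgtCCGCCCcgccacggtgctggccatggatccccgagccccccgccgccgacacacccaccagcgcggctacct
Tkt: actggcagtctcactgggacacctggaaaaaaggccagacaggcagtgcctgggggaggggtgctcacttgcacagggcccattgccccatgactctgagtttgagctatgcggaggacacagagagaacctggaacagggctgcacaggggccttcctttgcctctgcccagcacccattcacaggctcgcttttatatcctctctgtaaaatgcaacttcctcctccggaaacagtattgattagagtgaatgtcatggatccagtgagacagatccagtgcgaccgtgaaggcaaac
Acly and Slc25a1 held CCAAT boxes and GC boxes, Me1 held 5 GC boxes and 1 TGACTCA, and Tkt held none of the 5 motifs. CCAAT was found in 5 of the 7 promoters (Acacb, Acly, Pgd, Taldo1 and Slc25a1) and in 37.5% of all 33469 promoters, and GGGCGG in 5 of 7 (Acly, Me1, Pgd, Taldo1 and Slc25a1) and in 33.1% of all. TGACTCA was found in 1 of 7 and in 4.63% of all. CACGTG (6.42% of all) and TCACNCCAC (1.12% of all) were in none of the 7 windows. These matches describe letters in the windows and not bound sites.

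The comparison of HF with Control livers asked how the supply of carbons and reducing power for fatty acid synthesis differed when fat replaced most of the dietary carbohydrate. All 11 member probes had a negative change, and 10 fell and none rose by the test, while 3.46% of all 25292 probes were called and 1.73% were called lower (limma, Benjamini-Hochberg adjusted p under 0.05). The called probes belong to 7 of 8 genes, and Taldo1 did not pass. The median change of all 11 member probes was -1.82 on the log2 scale, against -0.01 over all probes. For 6 of 11 probes every HF liver lay below every Control liver, which held for 1.13% of all probes.

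Fasn, the multifunctional enzyme that builds palmitate, had log2 ratios at probe A_44_P235978 between -4.03 and -1.89 in HF livers (median -3.49), against values between -1.63 and 1.39 in Control livers (median 0.14). Every HF liver was below every Control liver, with HF 1 and HF 6 the highest of the HF livers and Control 6 the lowest of the Control livers. The change was -3.19 ± 0.49 (SE, n = 6 HF and 7 Control, limma adjusted p = 0.000951), a 9.13-fold lower level in HF. Only 1 probe of 25292 changed further downward. Its second probe, A_44_P235985, lay between -3.66 and -1.60 in HF livers (median -3.08) and between -1.54 and 1.24 in Control livers (median 0.19). That probe fell by 2.81 ± 0.44 (adjusted p = 0.00112) with no overlap either.

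On the way from mitochondrial citrate to acetyl-CoA, the cleaving enzyme moved much further than the carrier. Acly lay between -2.80 and -0.64 in HF livers (median -2.04), against -0.90 to 1.30 in Control livers (median 0.39). In 5 of 6 HF livers Acly was below every Control liver, and HF 1 overlapped with the lowest Control liver, Control 6. Acly fell by 2.16 ± 0.41 (adjusted p = 0.00388). Slc25a1, which exchanges citrate for malate across the inner mitochondrial membrane, lay between -0.88 and -0.36 in HF livers (median -0.67), against -0.64 to 0.14 in Control livers (median -0.21). It was below every Control liver in 4 of 6 HF livers and fell by 0.46 ± 0.10 (adjusted p = 0.0146). The call for Slc25a1 was lost with the scanner software's processed signals (-0.44, adjusted p = 0.0603), with Cy5 alone (-0.42, adjusted p = 0.117), with the deposited values (-0.43, adjusted p = 0.0825) and with the slide as a block (-0.40, adjusted p = 0.106).

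Of the carboxylases, Acaca makes the malonyl-CoA that is built into fatty acids in the cytosol, and Acacb makes the mitochondrial pool known to restrain fatty acid entry into mitochondria. At probe A_44_P514379, Acaca lay between -2.04 and -1.04 in HF livers (median -1.41), against -0.68 to 1.27 in Control livers (median 0.59), with no overlap. It fell by 1.87 ± 0.30 (adjusted p = 0.00128), a 3.65-fold lower level. The other Acaca probe, A_42_P489761, lay between -0.53 and -0.11 in HF livers (median -0.23), against -0.29 to 0.59 in Control livers (median 0.18), and overlapped. It fell by 0.49 ± 0.11 (adjusted p = 0.0181). This probe is dim, with Cy5 intensities of 126 to 215 in HF livers and 176 to 475 in Control livers, and on processed signals, which carry no added offset, its change was -0.74. Its call was lost without HF 3 (-0.44, adjusted p = 0.0517), with Cy5 alone (-0.43, adjusted p = 0.353) and with the deposited values (-0.50, adjusted p = 0.0814).

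Acacb was read by 1 dim probe that was well above background in 5 of 6 HF livers and in all Control livers. Its log2 ratio lay between -0.70 and -0.19 in HF livers (median -0.43), against -0.54 to 0.16 in Control livers (median 0.09), and among the Control livers only Control 6 lay inside the HF range. Acacb fell by 0.44 ± 0.12 (adjusted p = 0.0377). The call was lost when any of 10 livers was left out (Control 1, 3, 4, 5 or 7, or HF 1, 2, 3, 4 or 5), with changes between -0.53 and -0.39 over all 19 omissions. On processed signals the change was -1.38 (adjusted p = 0.0481), and on the deposited values it was -0.65 (adjusted p = 0.0744). The call was also lost with the slide as a fixed block (-0.50, adjusted p = 0.11), with the replicate number as a block (-0.42, adjusted p = 0.115) and without the filter on dim probes (adjusted p = 0.0511).

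Among the member genes of malic enzyme and the pentose phosphate pathway, Me1, which turns malate into pyruvate and makes NADPH, fell furthest. At probe A_42_P792817 it lay between -2.31 and -1.0 in HF livers (median -1.89), against -0.55 to 1.33 in Control livers (median 0.31). At probe A_43_P11481 it lay between -1.89 and -0.98 in HF livers (median -1.49), against -0.52 to 1.72 in Control livers (median 0.34). The HF and Control livers did not overlap at either probe. The changes were -2.12 ± 0.40 (adjusted p = 0.00347) and -1.82 ± 0.32 (adjusted p = 0.00205), and with the slide as a block the adjusted p of the first probe was 0.0505.

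Tkt and Taldo1 shuttle carbon between pentose phosphates and glycolysis. Tkt lay between -0.78 and -0.10 in HF livers (median -0.56), against 0.17 to 0.98 in Control livers (median 0.37), with no overlap. It fell by 1.02 ± 0.13 (adjusted p = 0.000247), the smallest adjusted p of the 11 probes. Taldo1 lay between -0.33 and -0.11 in HF livers (median -0.22), against -0.16 to 0.55 in Control livers (median -0.05), and in 5 of 6 HF livers it was below every Control liver. Its change was -0.32 ± 0.10 with an interval of -0.52 to -0.12, and it did not pass over all probes (adjusted p = 0.0702). It passed without Control 4 (-0.37, adjusted p = 0.0366) or without Control 6 (-0.35, adjusted p = 0.0483).

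**Figure D1:**
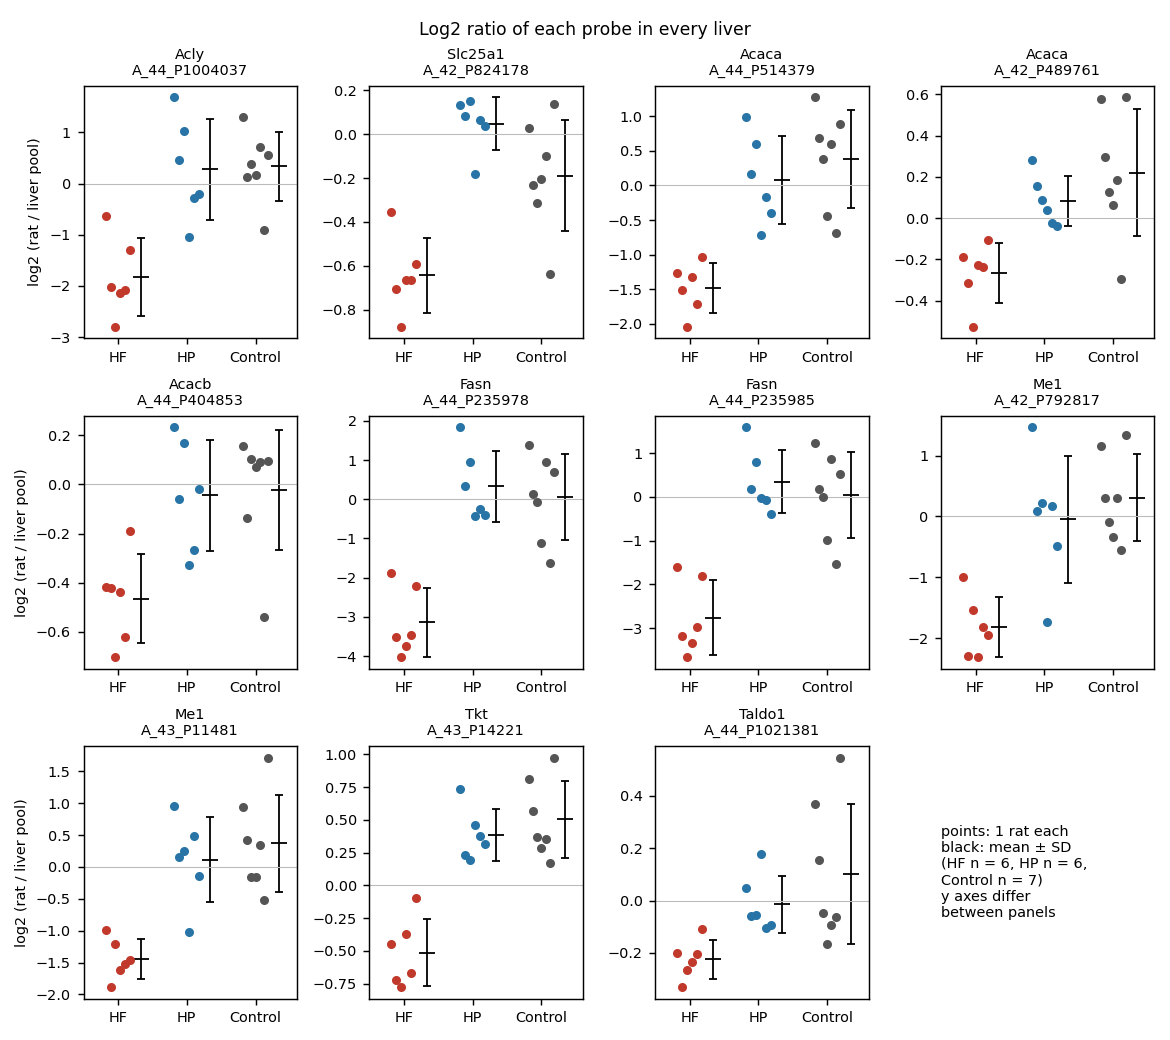
Log2 ratio of each rat to the liver pool (y axis) at the 11 member probes, by diet (x axis: HF, HP, Control), with 1 point per rat and the mean ± SD in black. The HF points lie below all Control points for Fasn, Me1, Tkt and the first Acaca probe, while HP points overlap Control points at all 11 probes.

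Probes described in the files as 6-phosphogluconate dehydrogenase, the Pgd enzyme that makes NADPH in the pentose phosphate pathway, were read although no rule named them, and were chosen after the files had been seen. Probe A_44_P408026, described as similar to that enzyme and placed at chr5:166221414-166221473 (rn4, minus strand), lay between -1.37 and -0.72 in HF livers (median -1.04), against -0.35 to 1.13 in Control livers (median 0.04). It fell by 1.23 ± 0.22 (limma adjusted p = 0.00236) with no overlap. Probe A_43_P11285, described as Cc2-27, a name the reference table lists as a synonym of Pgd, lies at chr5:166202399-166202458 (minus strand) and differed by -0.46 ± 0.19 (adjusted p = 0.249). A probe for a locus resembling Tkt, A_44_P652021, fell by 0.67 (adjusted p = 0.00126), and whether it shares transcripts with Tkt was not tested. A dim probe for a locus resembling Slc25a1, A_44_P333477, differed by -0.13 ± 0.06 and did not pass (limma adjusted p = 0.306). Whether that probe shares transcripts with Slc25a1 was not tested either.

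The members did not fall to the same degree within the same livers. The change of the log2 ratio of 1 gene minus that of another was tested for all 28 pairs of genes, each by its brightest probe, with exact two-sided permutation tests over the 1716 divisions of 13 rats, and 22 pairs passed after Benjamini-Hochberg adjustment. The smallest p these divisions allow is 0.00117. Fasn fell further than each of the 7 other genes. Its change minus that of the other gene was -1.03 for Acly (exact permutation test, adjusted p = 0.00653), -1.07 for Me1 (adjusted p = 0.0208) and -1.32 for Acaca (adjusted p = 0.00544). Acaca, Acly and Me1 did not differ detectably from each other (differences from -0.04 to 0.29, adjusted p from 0.313 to 0.897). Tkt fell less than these 3 and more than Acacb, Slc25a1 and Taldo1, and the last 3 did not differ detectably from each other (differences from -0.12 to 0.13, adjusted p from 0.264 to 0.897). The place of the dim Acacb probe depends on the offset added to the signals. On processed signals, which carry none, the change of Acacb minus that of Tkt was -0.36 (exact permutation test, adjusted p = 0.295), and Acacb fell further than Slc25a1 (-0.94, adjusted p = 0.0236) and Taldo1 (-1.05, adjusted p = 0.0311). Probes differ in their response to RNA, so these are differences between probes as read.

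Probes of 1 gene showed how far this matters. The change of the brighter probe minus that of the other was -0.38 for Fasn and -1.38 for Acaca (exact permutation test, adjusted p = 0.0035 each) and -0.31 for Me1 (adjusted p = 0.0466). None of the 3 pairs differed in HP against Control (adjusted p from 0.710 to 0.829). With processed signals or without Control 6, 2 of the 6 tests passed.

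Neighbouring enzymes were counted from 4 lists of genes that are not members. Of 13 measured pentose phosphate and other NADPH genes, 2 fell in HF against Control and none rose, with a median of -0.11. Rpia, the ribose phosphate isomerase, was 1 of these and fell by 0.45 ± 0.10 (limma adjusted p = 0.0125). Idh2, which makes NADPH in mitochondria, differed by 0.41 (adjusted p = 0.0801) and Nnt, the mitochondrial transhydrogenase, by -0.26 (adjusted p = 0.109). Of 20 measured genes of pyruvate, citrate and acetyl-CoA, 3 fell and none rose (median -0.06). These were liver pyruvate kinase Pklr (-1.39 ± 0.18, adjusted p = 0.000214), the pyruvate dehydrogenase kinase Pdk1 (-0.89 ± 0.13, adjusted p = 0.000759) and cytosolic malate dehydrogenase Mdh1 (-0.67 ± 0.12, adjusted p = 0.00192). Acss2, which makes acetyl-CoA from acetate, differed by -0.70 (adjusted p = 0.0903).

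Downstream of palmitate, 4 of 17 measured genes fell and none rose (median -0.16). The desaturase Scd fell by 5.17 ± 0.40 and its relative Scd2 fell by 2.91 ± 0.22 (limma adjusted p = 6.84e-07 each). The elongase Elovl6, which lengthens palmitate, fell by 3.10 ± 0.57 (adjusted p = 0.0033) and Elovl1 fell by 0.29 ± 0.07 (adjusted p = 0.0323). Of 18 measured regulators 4 fell and none rose (median -0.08). They were Mlxipl, which encodes ChREBP (-0.70 ± 0.15, adjusted p = 0.0094), Thrsp, the Spot 14 protein of lipogenic liver (-1.28 ± 0.28, adjusted p = 0.0125), Srebf1, which encodes SREBP-1 (-0.80 ± 0.19, adjusted p = 0.0205), and Mid1ip1, a partner of acetyl-CoA carboxylase (-1.0 ± 0.25, adjusted p = 0.0256). The medians of these 4 lists lay much nearer to the median of all probes (-0.01) than that of the member probes. The lists took 1 probe per gene, while the member median is over all 11 probes and counts Fasn, Acaca and Me1 by 2 probes each.

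The comparison of HP with Control livers asked how the same genes stood when protein replaced carbohydrate at the same share of fat. None of the 11 member probes passed limma's test, against 0.447% of all probes. At an unadjusted p under 0.05 there was 1 member probe, Slc25a1, among 3633 probes in all, and no alternative setting called any member. The changes ran from -0.35 to 0.31 with a median of -0.11, and 8 of 11 were negative.

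Slc25a1 lay between -0.18 and 0.15 in HP livers (median 0.07), against -0.64 to 0.14 in Control livers (median -0.21), and differed by 0.24 ± 0.10 (interval 0.02 to 0.45, limma adjusted p = 0.3). With 1 rat left out this difference lay between 0.16 and 0.29. Fasn lay between -0.44 and 1.83 in HP livers (median 0.03), against -1.63 to 1.39 in Control livers (median 0.14), and differed by 0.28 ± 0.49 with an interval of -0.75 to 1.31 (adjusted p = 0.824). HP 1 was higher for Fasn than any Control liver, and no HP liver was below the Control range. Acly lay between -1.04 and 1.69 in HP livers (median 0.13), against -0.90 to 1.30 in Control livers (median 0.39), and differed by -0.06 (interval -0.91 to 0.80, adjusted p = 0.964).

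Me1, at its first probe, lay between -1.73 and 1.46 in HP livers (median 0.12), against -0.55 to 1.33 in Control livers (median 0.31). HP 1 lay above and HP 4 below all Control livers, and the difference was -0.35 (interval -1.18 to 0.48, adjusted p = 0.714). The intervals were narrower for Tkt (-0.12, from -0.40 to 0.16), Taldo1 (-0.11, from -0.31 to 0.09) and Acacb (-0.02, from -0.26 to 0.22). Within slides the sign was not steady. The HP minus Control value of the first Fasn probe was -0.78 on slide 2 and -0.69 on slide 4, and it was 1.89 on slide 5, whose only Control liver is Control 6. No gene of the 4 neighbouring lists passed in HP against Control, and those with the smallest p were Nnt (-0.31, adjusted p = 0.105), Rbks (0.26, adjusted p = 0.149), Mlycd (0.32, adjusted p = 0.122), Pc (-0.32, adjusted p = 0.15), Mlx (0.24, adjusted p = 0.131), Srebf2 (-0.19, adjusted p = 0.137), Dgat1 (0.18, adjusted p = 0.2) and Agpat2 (0.19, adjusted p = 0.371).

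HF and HP livers differed in fat, protein and carbohydrate together. This comparison shares its HF arrays with the comparison against Control. Of 11 member probes 9 fell and none rose, against 7.08% of all probes called and 3.81% called lower, and for 7 probes every HF liver lay below every HP liver (2.83% of all probes). The changes were -3.47 ± 0.51 for the first Fasn probe (limma adjusted p = 0.000287), -2.10 ± 0.43 for Acly (adjusted p = 0.0046), -1.77 ± 0.41 for the first Me1 probe (adjusted p = 0.0117) and -1.56 ± 0.31 for the first Acaca probe (adjusted p = 0.00441). Tkt fell by 0.90 ± 0.14 (adjusted p = 0.000391), Slc25a1 by 0.69 ± 0.11 (adjusted p = 0.000402) and Acacb by 0.42 ± 0.12 (adjusted p = 0.0383). The call for Acacb was lost when any of 8 livers was left out (HF 2, 3, 4 or 5, or HP 1, 2, 3 or 6), with changes between -0.48 and -0.36 over all 19 omissions, and also with the replicate number as a block (adjusted p = 0.0771) and without the filter on dim probes (adjusted p = 0.0529). The second Acaca probe (-0.35, adjusted p = 0.0795) and Taldo1 (-0.21, adjusted p = 0.24) did not pass, although every HF liver lay below every HP liver for both.

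HF and HP livers shared only slide 4, with 1 HF and 2 HP livers. With the slide as a block, 3 of 11 member probes passed (the 2 of Fasn and that of Tkt), against 365 of all 25292 probes, so slide and diet were largely confounded here. Within slide 4 the differences kept their sign at all 11 probes and were -2.58 for the first Fasn probe, -1.41 for the first Acaca probe, -0.96 for Acly and -1.05 for Tkt. HF and Control livers shared slides 1, 3 and 4, where the first Fasn probe differed by -3.28, -3.07 and -3.27. With the slide as a block 7 of 11 probes passed in that comparison.

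**Figure D2:**
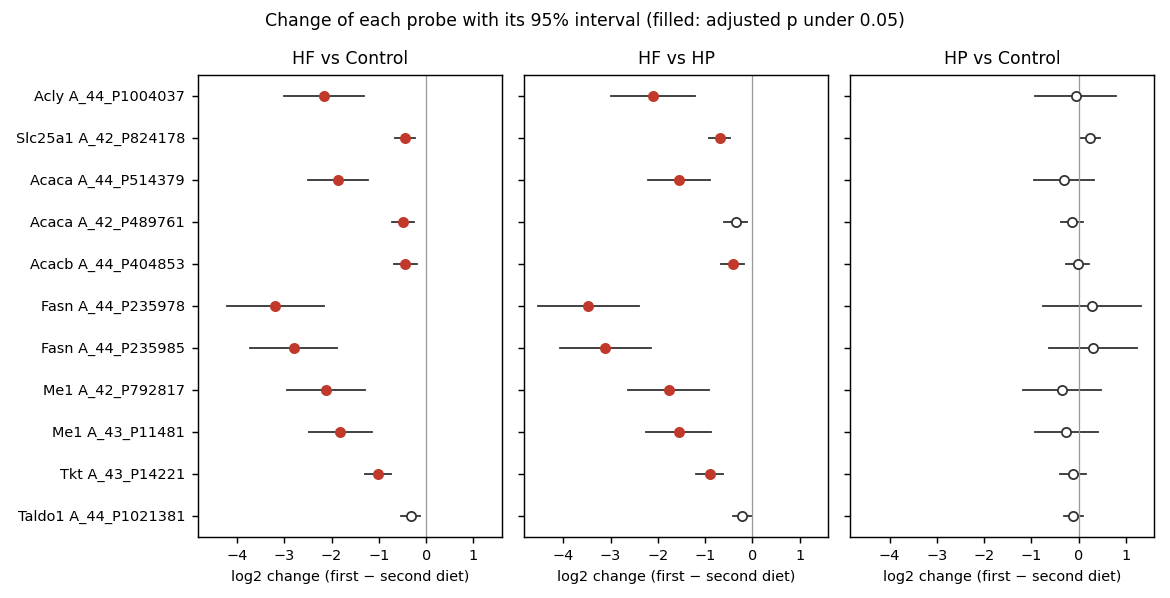
Log2 change (x axis) with its 95% interval for each of the 11 member probes (y axis) in HF against Control, HF against HP and HP against Control, filled where limma's adjusted p was under 0.05. There are 10, 9 and 0 filled points, and the Fasn probes lie furthest left in both HF comparisons.

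Rats of 1 diet differed widely in these genes. The SD of Fasn between rats was 0.87 in HF, 0.91 in HP and 1.09 in Control livers, against a median SD over all probes of 0.11 in HF, 0.12 in HP and 0.14 in Control. The share of probes with a lower SD than Fasn was 99.7% in HF, 99.7% in HP and 99.4% in Control. Acly had SDs of 0.75, 0.99 and 0.67 in HF, HP and Control livers. Me1 had SDs of 0.49, 1.04 and 0.72 in the same order of diets. Taldo1 varied little in HF (SD 0.07, above 17.1% of probes) and in HP (SD 0.11, above 42.3%), and more in Control (SD 0.27, above 83.7%).

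The same rats were high or low for most of the 8 genes. After the mean of each diet was removed from each gene's brightest probe, all 28 pairs of genes had a positive Pearson r over 19 livers, with a median of 0.72 and a range from 0.19 to 0.91. A permutation test within diets with 100000 resamples passed 18 of 28 pairs after Benjamini-Hochberg adjustment, and 19 pairs passed with Spearman's rho (median rho 0.66). Fasn with Acaca had r = 0.91 and rho = 0.93 (permutation p = 1e-05, the smallest the resamples can give, adjusted p = 0.00014). Fasn with Acly had r = 0.91 and rho = 0.89 (adjusted p = 0.00014). Acly with the citrate carrier Slc25a1 had r = 0.80 and rho = 0.81 (adjusted p = 0.00014).

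Tkt and Taldo1, the enzymes of the non-oxidative pentose pathway, went most closely with each other (r = 0.80, rho = 0.78, permutation adjusted p = 0.00072). Tkt also passed with Fasn (r = 0.64, rho = 0.62, adjusted p = 0.0124), Acaca (r = 0.67, rho = 0.64, adjusted p = 0.00635) and Slc25a1 (r = 0.60, rho = 0.54, adjusted p = 0.0244). By Pearson's r Taldo1 passed with no other member, and by rho it also passed with Acaca (r = 0.49, rho = 0.59, permutation adjusted p of rho = 0.0303). Its weakest values were with Acacb (r = 0.19, rho = 0.22, adjusted p = 0.549) and Acly (r = 0.23, rho = 0.29, adjusted p = 0.331). The other pairs that did not pass were Acacb with Me1 (r = 0.51), Acacb with Tkt (r = 0.51), Acly with Tkt (r = 0.49) and Me1 with Tkt (r = 0.48).

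**Figure D3:**
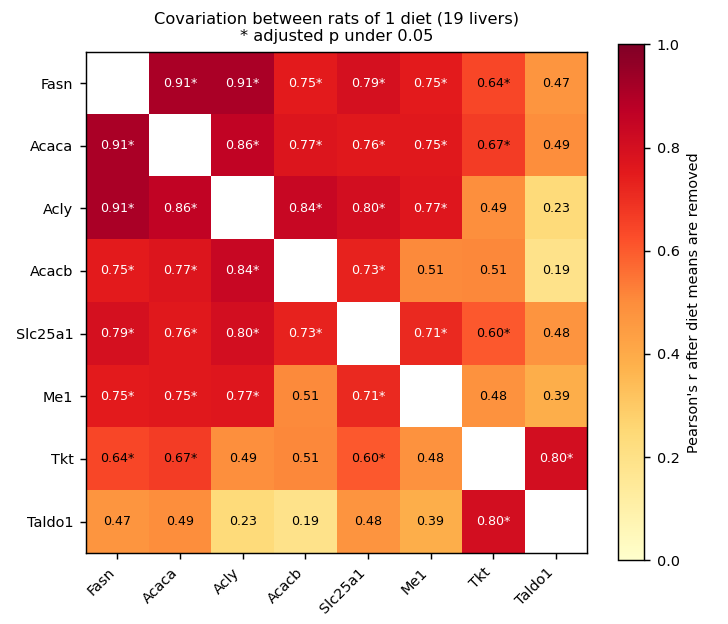
Pearson's r between pairs of the 8 genes over 19 livers after diet means were removed, with colour and number giving r and an asterisk marking an adjusted permutation p under 0.05. The block of Fasn, Acaca, Acly, Acacb and Slc25a1 holds values of 0.73 or more, and Taldo1 has its highest value, 0.80, with Tkt.

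As a description of how unusual these values are, the median r of Fasn with the 25031 other probes that had a value on every array was -0.03, and 10% of those probes had an r above 0.37. The median r of Fasn with the 7 other genes, 0.75, was reached by 0.344% of probes. The corresponding shares were 0.292% for Acaca, 0.196% for Acly, 0.288% for Acacb, 0.332% for Me1, 0.559% for Slc25a1, 1.47% for Tkt and 4.28% for Taldo1. All these values come from the same 19 arrays, so they share each array's normalisation.

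With the 2 livers farthest from the median of the first gene left out, the median r was 0.60, and 15 of the 18 pairs kept a permutation p under 0.05. Fasn with Acaca (r = 0.85) and Fasn with Acly (r = 0.86) were among these, and Fasn with Tkt (r = 0.48, p = 0.101), Acacb with Slc25a1 (r = 0.45, p = 0.059) and Tkt with Slc25a1 (r = 0.52, p = 0.0517) were not. Taldo1 with Slc25a1 had r = 0.48 over all livers and -0.08 without Control 1 and Control 7. Without Control 6 the median r was 0.63 and 17 of 28 pairs passed. With slide means also removed the median r was 0.67.

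Within single diets the median r of the 28 pairs was 0.62 in HF, 0.72 in HP and 0.82 in Control livers. Not all pairs were positive there. In HF livers 25 of 28 pairs had an r above 0 (lowest -0.22, Acacb with Me1). In HP livers 22 of 28 did (lowest -0.69, Taldo1 with Slc25a1), and in Control livers 28 of 28 did (lowest 0.29). Exact permutation tests over 84 values (6, 6 and 7 rats) passed for 4 pairs in HF, 7 in HP and 12 in Control, and for none with Spearman's rho. Without the 2 livers of the diet farthest from the median of the first gene, the median r was 0.43 in HF, 0.66 in HP and 0.65 in Control. So few livers leave single values of r unsteady. Fasn with Acly passed in all 3 diets (r = 0.97 in HF, 0.96 in HP and 0.91 in Control). Whether r differed between diets was not tested. Over all 19 livers, both probes of 1 gene correlated at r = 0.99 for Fasn, 0.94 for Me1 and 0.85 for Acaca. The probe described as similar to 6-phosphogluconate dehydrogenase had r = 0.81 with Me1, 0.79 with Tkt and 0.74 with Fasn.

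The deviations of single livers show which rats were high or low. HP 1, Control 1, Control 7 and HF 1 were above their own diet mean for 8 of 8 genes and HF 6 for 7 of 8. Control 6 was above it for 0 of 8, and HF 2, HF 3, HF 5, HP 6 and Control 4 for 1 of 8. Averaged over the 8 genes, the log2 ratio was 0.89 in HP 1 and -0.47 in HP 4 on the same diet. Body weight, food intake and time since the last meal of single rats were not analysed here.

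**Figure D4:**
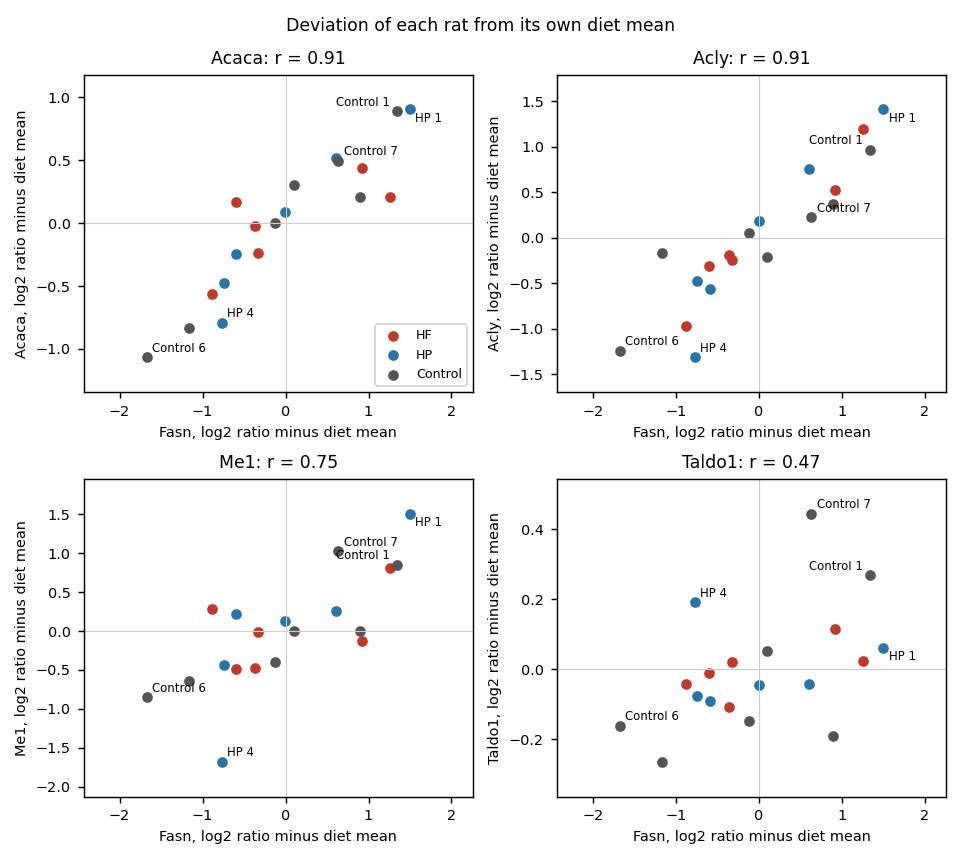
Deviation of each rat from its own diet mean, in log2 units, for Fasn (x axis) against Acaca, Acly, Me1 and Taldo1 (y axes), coloured by diet, with 5 rats named. Acaca and Acly follow Fasn closely (r = 0.91 each), and Taldo1 follows it least of the 4 (r = 0.47).

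Regulators and neighbours of the pathway were set against the 8 genes in the same way, in 64 pairs, of which 39 passed the permutation test within diets (34 with rho). Pklr passed with 8 of 8 genes (median r 0.72), Elovl6 with 7 (median r 0.85), Scd with 7 (median r 0.60) and Insig1, an SREBP target that retains SREBP in the endoplasmic reticulum, with 6 (median r 0.65). Srebf1 and Thrsp passed with 4 each (median r 0.45 and 0.51) and Mlxipl with 3 (median r 0.52). Without Control 6, 25 of 64 pairs passed, and the count was 8 for Pklr, 6 for Elovl6, 4 for Scd and Insig1, 2 for Thrsp, 1 for Srebf1 and 0 for Mlxipl.

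Among 10720 named genes, those whose deviations were most like the mean of the 8 scaled members over 19 livers were, outside the members, Elovl6 (r = 0.90), Pklr (0.89), Odad4 (0.88), Acss2 (0.88), Tlcd1 (0.87), the cholesterol synthesis enzyme Lss (0.87), the pyruvate dehydrogenase kinase Pdk2 (0.85) and Sult4a1 (0.85). These are descriptions without a test. The members themselves took ranks 1, 2, 4 and 6 (Fasn, Acaca, Acly and Slc25a1), 20 (Me1), 25 (Acacb), 37 (Tkt) and 234 (Taldo1) in this order, to which each contributes.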

How the data were processed

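Agilent 2-colour arrays compared each of 19 rat livers (Cy5) with an equimolar liver pool (Cy3), with no dye swap. Mean signals and local background are intensity values in the deposited files, per the file headers, and per the submitters' processing notes they were read with Agilent Feature Extraction 10.5.1.1. The authors also deposited log2 values, whose steps are not given in the sources used here. Each column of these had a median of 8.21 and correlated with the ratios used here at r of 0.91 to 0.98, and they served as an alternative. Probe positions refer to build rn4.

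Background medians were corrected by normexp with an offset of 50, which pulls the ratios of dim probes towards 0. On 5 arrays, 40 spots were dropped because local background was brighter than the spot by over 50. Loess was applied to the ratios of each array at weight 0 for controls, outlier spots were dropped, and repeated spots were averaged. In Cy5, 54.2% to 67.5% of spots per array stood well above background. The number of arrays limits the precision.

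Probes were named by RefSeq accession (10835 of 41012), symbol (5196) or synonym (3478), and 21503 were not named. All 3 diets were fitted in 1 model with limma 3.58.1 (R 4.3.3, 16 residual and 3.32 prior degrees of freedom), two-sided, with Benjamini-Hochberg adjustment over 25292 probes and calls at an adjusted p under 0.05. Changes are given with the model's SE. Correlations and their permutation tests within diets were computed with numpy 2.4.6 in Python 3.11.15. Ranks and exact permutation tests used scipy 1.17.1, and all tests were two-sided. On simulated data, 94% of log2 changes of 1 were recovered among 25032 probes in HF against Control, and 3.59% of the calls were false. The recovered share is not given apart for probes that vary as widely between rats as those of Fasn, Acly and Me1.

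The labels describe separate rats. Slides (5, each scanned once) were tested as batches. The members, the 4 pathway lists, the 7 marker lists and the tests were chosen with earlier results of these data known. Named genes are every member probe, the 4 genes of each pathway list with the smallest p in HF against Control and the 2 in HP against Control, the 8 genes most like the members' mean, and the regulators correlated with them. Idh2, which is no member, was named by the rule on the smallest p in HF against Control. Some genes that these rules name are counted in the totals and not reported here by name. Since no probe was named Pgd, correlations cover the 28 pairs of 8 genes.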

Additional observations from a re-analysis of the deposited data

Results flagged for a closer look

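Among the 33 sets of values (11 probes in 3 diets), 2 held a liver that stood apart from the others of its diet by Dixon's test at the 95% level, and chance gives about 5% of sets. For Acacb, Control 6 had a log2 ratio of -0.54, and the nearest of the other Control livers had -0.14, so the gap took up 0.58 of the range. This is the liver with high lymphocyte markers, and the part of that in its Acacb value was not tested. For Slc25a1, HP 4 had -0.18, and the nearest of the other HP livers had 0.04, with a gap of 0.65 of the range. HP 4 was also the lowest HP liver for Acly, Acacb and Me1 and at the first probes of Fasn and Acaca, but not at the second probes of those genes. It was the highest HP liver for Taldo1 (0.18), and its Tkt value (0.46) lay above the HP median (0.35).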

How the results depend on the processing

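The fall in HF against Control called 7 to 10 of 11 member probes under the settings tried (7 of 8 with 1 probe per gene) and 8 to 11 when 1 rat was left out, and no change of sign occurred at any probe in either HF comparison. Both Fasn probes, the first Acaca probe, Acly, the second Me1 probe and Tkt stayed called in that comparison under each setting that gave them a value. Over all probes the count was 874 (649 to 999 with 1 rat left out) and 474 with the slide as a block. In HF against HP the slide block called 3 member probes and 365 of all probes, against 1791 without it.

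In HP against Control no setting called a member. The count over all probes was 113, and it was 61 with normexp on every spot, 54 with processed signals, 53 with Cy5 alone, 24 with the slide block and 26 to 460 with 1 rat left out (39, 32, 73, 71 and 460 on leaving out Control 1, 2, 3, 5 and 7 in turn, and 49, 26, 35 and 26 on leaving out HP 1, 2, 4 and 6). Small differences changed sign there. Acacb, -0.02, became 0.0092 with normexp on every spot, 0.066 with processed signals, 0.036 with Cy5 alone and 0.14 with deposited values (-0.11 to 0.034 with 1 rat left out). Acly, -0.06, became 0.0063 with normexp on every spot and 0.069 with deposited values (-0.34 to 0.20 with 1 rat left out). Cy5 alone gave 0.062 for the second Acaca probe, 0.054 for Tkt and 0.031 for Taldo1, and deposited values gave 0.037 for Tkt. The first Fasn probe, 0.28, became -0.043 with the slide block and lay between -0.017 (without HP 1) and 0.51 with 1 rat left out. The causes were not tested.

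Over all kept probes the replicate numbers showed no pairing of the rats, which cannot show how the rats were matched. Like-numbered rats of different diets had a mean correlation of -0.0092 (18 pairs), against 0.0011 for 102 unlike-numbered pairs. With the replicate number as a block, 9, 0 and 8 member probes were called in HF against Control, HP against Control and HF against HP, and 692, 209 and 1627 of all probes were called in the same comparisons. For the members that block mattered more, since the median r of pairs was 0.50 with it and 0.72 without it. With it 24 of 28 pairs had an r above 0, against 28 without it. HF 1, HP 1 and Control 1, above their diet means for 8 of 8 genes, also shared slide 4. The count of member and regulator pairs that passed was 25 without Control 6. Dim probes limit Acacb and the second Acaca probe most.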
